A study of Homo sapiens with 6 samples.

Results

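The genes described here are the death receptors and the proteins that relay or block their signal, chosen by name and not by their measured values. The rule lists 8 symbols, and 6 of them were found among the 22925 genes of the deposited table: FAS, TNFRSF10B, TNFRSF1A, CFLAR, CASP8 and CASP9. TNFRSF10A and TNFRSF10D are not analysed here. RNA came from HT-1080, an established human fibrosarcoma cell line, in 6 libraries of poly(A) RNA. In 3 libraries the cells had received 20 μM PhenDC3, a small molecule that binds G quadruplexes, for 48 h in 1% DMSO, and in the other 3 they had received 1% DMSO alone for the same time. One cell line and one dose and time were compared, and the labels do not say that the libraries of a group came from separate cultures. The p-values set the difference between the groups against the spread of libraries within a group, and that spread may therefore be technical.

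Death receptors are members of the TNF receptor family whose cytoplasmic death domain recruits adaptor proteins when a ligand binds outside the cell. The adaptor FADD then gathers caspase 8, an initiator protease that cuts itself into its active form and goes on to cut other caspases. The protein of CFLAR, c-FLIP, resembles caspase 8 in its long form but lacks its protease activity, and c-FLIP binds in that same complex. Caspase 9 is the initiator of the other route, in which cytochrome c leaves the mitochondria and assembles the apoptosome with APAF1.

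Because PhenDC3 binds G quadruplexes, the 250 bases before each annotated start were searched for the motif of 4 runs of 3 or more G, separated by loops of 1 to 7 bases, on either strand. Windows before RefSeq start sites (build GRCh38.p14) were searched for 5 of the 6 genes, 13 windows in all. The promoter of the remaining gene is not analysed here. The motif was in 5 of these 13 windows, and in 23.5% of all 35116 windows of the same length. Both windows of CASP9 held it, as did 2 of the 4 of CFLAR and 1 of the 3 of FAS, while the 3 of CASP8 and the 1 of TNFRSF1A held no match. The consensus site of NF-kB, a transcription factor for which CFLAR is a known target, was also searched on either strand, a choice made after the values and the CFLAR sequence had been seen. It matched 1 window of CFLAR and 1 of FAS, and 9.96% of all windows. In these genes no match of one motif overlapped a match of the other. The stretches below show 1 match for each such window on the gene's strand, 5′ to 3′, with the matching bases in capitals. They let a reader set the sequence beside each gene's change. A match describes the letters only and says nothing about binding in these cells.
CASP9, chr1:15524264-15524293, minus strand, G quadruplex motif: ccctGGGGCGGGGGCGGGTCCTGGGGactg
CASP9, chr1:15524910-15524939, minus strand, G quadruplex motif: ccttGGGGGCGGGGTGGGGGCGTGGGttga
CFLAR, chr2:201118609-201118638, plus strand, NF-kB consensus: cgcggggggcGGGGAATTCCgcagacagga
CFLAR, chr2:201128902-201128931, plus strand, G quadruplex motif on the other strand: ttaCCCCTCCTACCCAGCCCCCTCCCagga
CFLAR, chr2:201140107-201140136, plus strand, G quadruplex motif: aggcgccGGGTGGGCTGGGTGGGctggggg
FAS, chr10:88990566-88990595, plus strand, G quadruplex motif on the other strand: gagCCCTCCCCAACCCGGGCGTTCCCCagc
FAS, chr10:88991264-88991293, plus strand, NF-kB consensus: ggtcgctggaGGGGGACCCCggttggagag

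With PhenDC3 the transcripts of the receptors TNFRSF10B, TNFRSF1A and FAS fell slightly, CASP8 fell, and CFLAR rose, while CASP9 was slightly higher. All levels are normalized counts, which are read counts divided by 1 size factor per library, and changes are from limma on log2 of the normalized count plus 1. Among all 16482 genes tested, 59.6% passed at an adjusted p under 0.05, 29.2% higher and 30.4% lower, so 6 of 6 calls here is to be read against a high background. In 64.1% of tested genes the DMSO and PhenDC3 libraries did not overlap, as was the case for each of the 6 genes. The median log2 change of the 6 was -0.23, beside -0.02 over all genes tested. The libraries held 7371056 to 14292987 reads, the PhenDC3 ones being the shallower 3. Mitochondrial genome RNA took 15.4% to 15.5% of reads in PhenDC3 and 3.72% to 3.96% in DMSO, and the 6 calls were also made when libraries were scaled by reads outside that genome. Of 7 mesenchymal markers, led by VIM and FN1, 6 were tested, 4 being lower and 1 higher. Their sum was 37934 to 40958 normalized counts across DMSO libraries and 21477 to 21641 across PhenDC3 libraries. Of 6 epithelial markers 4 were tested, 2 being higher and none lower, with sums of 2279 to 2801 and 2438 to 2684, mostly from the keratins KRT8 and KRT18. The 1 endothelial marker in the table, VWF, was at most 3.94 normalized counts. The 1 immune marker in the table, CD68, was higher, at 4.64 to 7.78 in DMSO and 7.87 to 19.4 in PhenDC3 (limma, adjusted p = 0.0132), and 3 erythroid markers are not analysed here. The part of these markers in the results was not tested. In bulk RNA, fewer cells with a transcript and less of it per cell cannot be told apart.

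**Figure D1:**
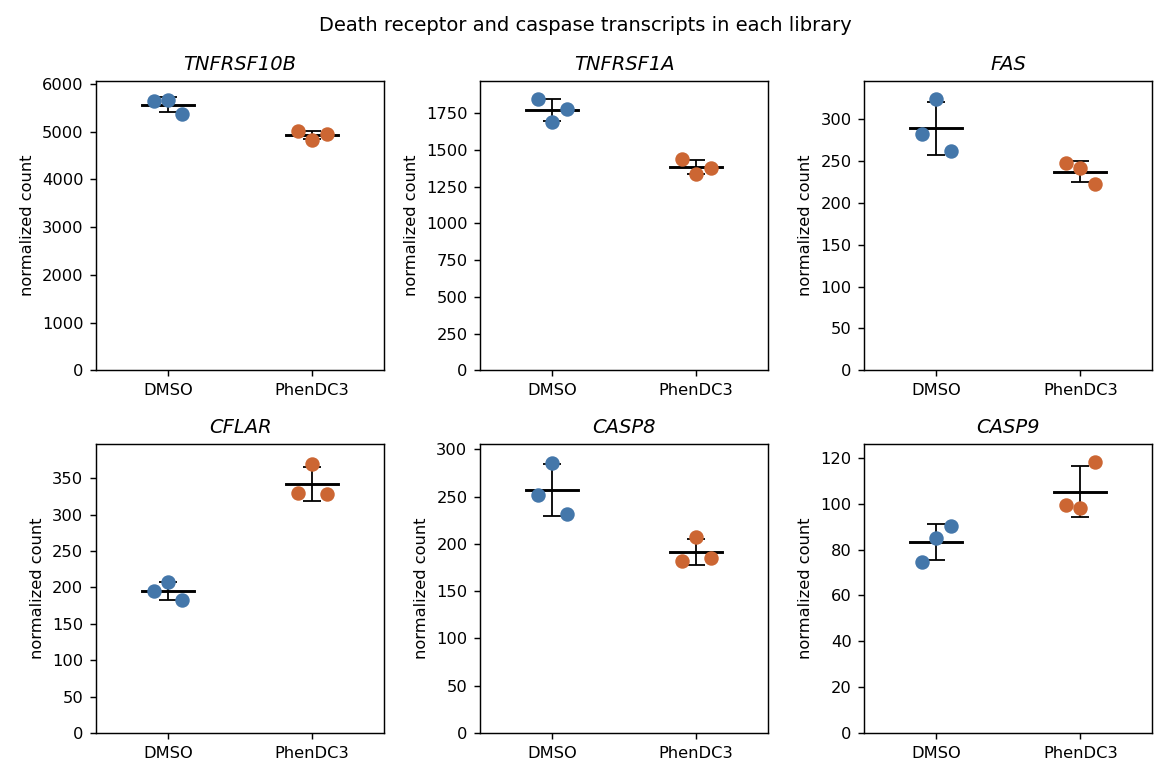
Normalized counts (vertical axes, from 0) of 6 genes in each of 3 DMSO (blue) and 3 PhenDC3 (orange) libraries, with the mean as a wide bar and the SD as whiskers. The groups do not overlap in any panel, and CFLAR shows the widest gap relative to its own level, at 182 to 207 in DMSO and 328 to 369 in PhenDC3.

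TNFRSF10B encodes TRAIL receptor DR5, which binds the ligand TRAIL. Its transcript stood at 5654, 5668 and 5381 normalized counts in the DMSO libraries and at 5008, 4831 and 4946 in the PhenDC3 libraries. Every PhenDC3 library was lower than every DMSO library, by a small margin. The mean went from 5568 ± 162 to 4929 ± 90.1 (SD, n = 3), or 0.885 of its DMSO level (limma, log2 fold change -0.18, SE 0.06, 95% interval -0.29 to -0.06, adjusted p = 0.0113). The call was lost without DMSO replicate 2 (limma, adjusted p = 0.0519), without PhenDC3 replicate 3 (adjusted p = 0.0533) and with no variance trend (adjusted p = 0.0615). TNFRSF10B is a known target of CHOP, the stress factor encoded by DDIT3. DDIT3, named here after its values were seen, was at 104 ± 15.0 normalized counts in DMSO and 608 ± 59.3 in PhenDC3, a 5.85-fold rise (limma, adjusted p = 1.64e-13). TNFRSF10B thus did not rise in the libraries in which DDIT3 did. It shares 67 exonic bases with RHOBTB2 on the opposite strand, and RHOBTB2 did not pass (log2 -0.17, limma, adjusted p = 0.0862).

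TNFRSF1A encodes the main receptor for TNF, which signals through TRADD to survival as well as to death. Its 3 DMSO libraries had 1845, 1693 and 1782 normalized counts, and its 3 PhenDC3 libraries 1436, 1337 and 1380. The lowest DMSO library was well above the highest PhenDC3 library. The level fell from 1773 ± 76.7 to 1384 ± 49.5, or 0.781 of its DMSO value (limma, log2 fold change -0.36, SE 0.06, 95% interval -0.49 to -0.22, adjusted p = 7.46e-05). This call held in each of the 18 alternative settings.

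FAS, the receptor of Fas ligand, had 282, 324 and 262 normalized counts in DMSO and 247, 241 and 223 in PhenDC3. The groups came close, with DMSO replicate 3 just above PhenDC3 replicate 1. The mean went from 289 ± 31.7 to 237 ± 12.6, or 0.820 (limma, log2 fold change -0.28, SE 0.10, 95% interval -0.49 to -0.07, adjusted p = 0.0197). FAS lost its call without DMSO replicate 2 (limma, log2 -0.20, adjusted p = 0.152) and without PhenDC3 replicate 3 (adjusted p = 0.0894), and it did not pass in the authors' deposited table (adjusted p = 0.072). FAS shares 380 exonic bases with ACTA2 on the opposite strand, and ACTA2 was at 115 normalized counts in DMSO and 100.4 in PhenDC3 (limma, adjusted p = 0.221). The kit was stranded, but the sources used here do not give the strand setting of the counting.

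CFLAR rose, and it moved further than the other 5. It had 195, 207 and 182 normalized counts in the DMSO libraries and 330, 369 and 328 in the PhenDC3 libraries. The lowest PhenDC3 library lay far above the highest DMSO library. The mean went from 195 ± 12.6 to 342 ± 23.2, a 1.76-fold rise (limma, log2 fold change 0.81, SE 0.10, 95% interval 0.61 to 1.01, adjusted p = 3.63e-07). Its log2 change was at the 86.8th percentile of all genes tested. The call held in each of the 18 alternative settings, at log2 changes of 0.70 to 0.86. CFLAR shares 777 exonic bases with its antisense gene CFLAR-AS1. That gene ranged from 2.33 to 6.21 in the DMSO libraries and from 5.92 to 22.3 in the PhenDC3 libraries (normalized counts). CFLAR-AS1 was itself called higher (limma, log2 1.20, adjusted p = 0.0318), on 3 to 15 reads per library. Its groups overlapped, and it did not pass in the authors' deposited table (adjusted p = 0.0774). The part of antisense reads in the CFLAR counts was not tested. CFLAR also shares 1488 exonic bases with the pseudogene IMPDH1P10 and 445 with AC007283.1, and CASP9 shares 106 with CELA2B, and these 3 partners are not analysed here. The gene makes a long and a short form of c-FLIP, which counts per gene do not separate.

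CASP8, the initiator caspase of the death receptor complex, had 252, 286 and 232 normalized counts in DMSO and 182, 207 and 185 in PhenDC3. Its groups were apart, with DMSO replicate 3 the nearest to the treated libraries. The level fell from 257 ± 27.5 to 191 ± 13.5, or 0.746 of its DMSO value (limma, log2 fold change -0.42, SE 0.10, 95% interval -0.64 to -0.20, adjusted p = 0.0018). CASP8 kept its call in each of the 18 alternative settings, with adjusted p-values up to 0.0218.

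CASP9, the initiator caspase of the apoptosome, had the fewest reads of the 6, at 66 to 131 per library, without regard to length. It had 74.7, 85.1 and 90.3 normalized counts in DMSO and 99.4, 98.3 and 118 in PhenDC3. The groups did not overlap, although DMSO replicate 3 and PhenDC3 replicate 2 were close. The mean was 83.4 ± 7.95 and 105 ± 11.1, a ratio of 1.26 (limma, log2 fold change 0.33, SE 0.14, 95% interval 0.05 to 0.62, adjusted p = 0.0422). The call failed in more settings than those of the other 5 genes. It was lost without DMSO replicate 1 (limma, adjusted p = 0.17), DMSO replicate 2 (adjusted p = 0.0717) or PhenDC3 replicate 3 (adjusted p = 0.181), and with reads thinned to the smallest library (log2 0.21, adjusted p = 0.229). In the authors' deposited table CASP9 had an adjusted p of 0.175, so that FAS and CASP9 were the 2 of the 6 that did not pass there, where 39.0% of genes with an adjusted p did.

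**Figure D2:**
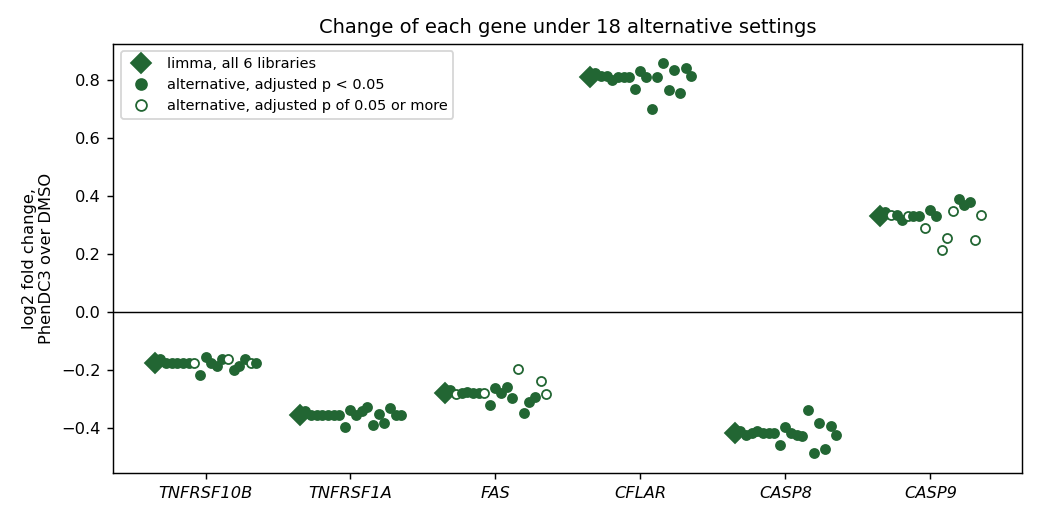
Log2 fold change of PhenDC3 over DMSO (vertical axis) for 6 genes, from limma with all libraries (diamond) and from 18 alternative settings (circles, filled where the adjusted p was under 0.05). CFLAR, TNFRSF1A and CASP8 are filled throughout, while open circles appear for TNFRSF10B, FAS and CASP9, and no value crosses 0.

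CFLAR and CASP8 changed places in read number. The ratio of CFLAR to CASP8 normalized counts, which does not depend on the size factor, was 0.772, 0.724 and 0.786 in the DMSO libraries and 1.81, 1.78 and 1.77 in the PhenDC3 libraries. CASP8 had the more reads of the pair in DMSO and CFLAR the more in PhenDC3. The mean ratio rose from 0.761 ± 0.032 to 1.79 ± 0.020 (SD, n = 3), 2.35-fold, a log2 difference of 1.23 with an SE of 0.04. With 3 libraries against 3, the exact permutation test (two-sided) gave p = 0.1, the smallest this design allows, and p = 0.1 after Benjamini-Hochberg adjustment over the 2 ratios. The ratio of CASP9 to CASP8 was 0.296, 0.297 and 0.390 in DMSO and 0.545, 0.475 and 0.638 in PhenDC3. It too was higher in all 3 treated libraries, 1.69-fold on average, with a wider spread (log2 difference 0.75, SE 0.18, exact permutation p = 0.1). These ratios compare reads and not molecules, since the genes differ in length.

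**Figure D3:**
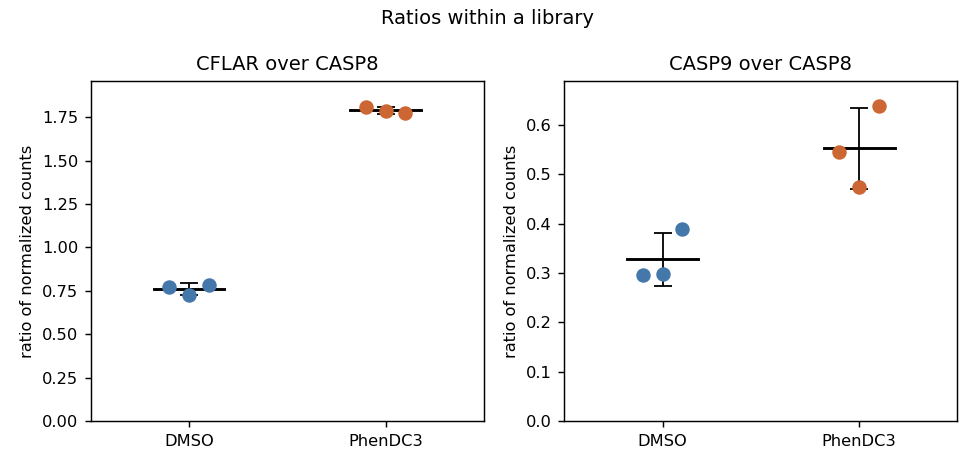
Ratio of normalized counts of CFLAR to CASP8 (left) and of CASP9 to CASP8 (right) in each DMSO (blue) and PhenDC3 (orange) library, with the mean as a wide bar and the SD as whiskers, on axes from 0. The CFLAR ratio lies at 0.724 to 0.786 in DMSO and at 1.77 to 1.81 in PhenDC3.

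Per length, the receptors for TRAIL and TNF were far more abundant than the other genes. In DMSO, per kilobase of merged GENCODE exons, TNFRSF10B stood at 1079 normalized counts, TNFRSF1A at 443, FAS at 68.0, CASP8 at 35.4, CASP9 at 15.8 and CFLAR at 8.64. With PhenDC3 the order was the same, from TNFRSF10B at 956 to CASP9 at 20.0 and CFLAR at 15.2, and no neighbours in either order overlapped between libraries. The lower end of this order depends on the length used, because the merged exons of CFLAR span 22529 bases and its coding transcripts have a median length of 1214. Per kilobase of median coding transcript, a length chosen after seeing the data, CFLAR was at 160 in DMSO, below FAS at 209 and CASP8 at 201, which overlapped between libraries. In PhenDC3 it was at 282, above FAS at 172 and CASP8 at 150.1. TNFRSF10B and TNFRSF1A led by either length.

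The rest of the pathway was described with lists of 63 other genes in 10 roles, of which 52 were in the table and 47 were tested. Of the 47, 15 were higher, 17 lower and 15 did not pass (limma), which is 68.1% called beside the 59.6% of all genes. Their median log2 change was 0.05. At the same threshold in the authors' deposited table, 12 of these genes were higher and 12 lower, and 39.0% of all genes with an adjusted p passed. Called by limma but not there were HTRA2 (adjusted p = 0.081), CASP2 (0.107), BID (0.114) and DFFB (0.117). The same held for RIPK1 (adjusted p = 0.121), CASP6 (0.126), TNFRSF10C (0.159) and BIRC6 (0.189).

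Of 7 ligand genes 3 were in the table, TNFSF10, LTA and TNFSF15, and none of these reached the mean of 5 normalized counts needed for a test. The other 4, with the genes of Fas ligand and TNF among them, are not analysed here. TNFSF10, which encodes TRAIL, had 1 read in each DMSO library and 2, 3 and 3 reads in the PhenDC3 libraries. Of the 8 other receptors of the family that were tested, 4 were higher and 1 lower (62.5% called, beside 59.6% of all genes). TNFRSF21, the death receptor DR6, was at 0.596 of its DMSO level. TNFRSF25, the death receptor DR3, rose 1.56-fold, RELT 1.74-fold and TNFRSF12A, the receptor of TWEAK, 1.62-fold, from 1538 ± 210.3 to 2491 ± 125 normalized counts. The decoy receptor TNFRSF10C, which binds TRAIL but has no death domain, was at 133 ± 3.76 and 107 ± 18.5 normalized counts (limma, log2 -0.33, adjusted p = 0.0411). Its call failed without any one of the 3 DMSO libraries (adjusted p up to 0.0774) and without PhenDC3 replicate 3 (log2 -0.18, adjusted p = 0.268).

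The adaptors went in both directions. FADD, which links FAS and the TRAIL receptors to caspase 8, fell to 0.565 of its DMSO level, with 147, 172 and 183 normalized counts in DMSO and 102, 96.8 and 85.3 in PhenDC3 (limma, log2 -0.81, SE 0.13, adjusted p = 1.2e-05). TRADD, the adaptor of the TNF receptor, rose 1.73-fold, with 83.3, 78.9 and 110.3 in DMSO and 156, 144 and 172 in PhenDC3 (limma, log2 0.80, SE 0.14, adjusted p = 4.34e-05). The 2 adaptors thus moved apart, and the groups overlapped for neither. TRAF1, another adaptor, rose 5.09-fold from 29.8 ± 5.36 normalized counts. TRAF5 fell to 0.683. RIPK1, the kinase of the TNF receptor complex, was 1.15-fold higher (limma, adjusted p = 0.0448), a call lost in 5 of the 6 fits without 1 library, all but that without DMSO replicate 2, and its log2 change of 0.20 became 0.12 without DMSO replicate 3 (adjusted p = 0.162).

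Of the 10 enzymes and regulators that attach or remove ubiquitin in the receptor complex, 5 were higher and none lower, so that 50.0% were called, below the 59.6% of all genes. BIRC3, the ligase cIAP2, rose 3.46-fold, from 31.0 ± 8.97 to 107 ± 7.74 normalized counts. CYLD, which removes ubiquitin chains from RIPK1, rose 2.10-fold. RNF31, the catalytic subunit of the linear ubiquitin ligase, rose 1.40-fold and ITCH, a ligase for c-FLIP, 1.22-fold. BIRC2, the ligase cIAP1, did not pass (702 ± 30.2 and 727 ± 40.8 normalized counts, limma, log2 0.05, adjusted p = 0.575). Nor did TNFAIP3, at 76.8 ± 10.4 in DMSO and 63.8 ± 4.72 in PhenDC3 (limma, log2 -0.26, adjusted p = 0.151). The NF-kB consensus sought above was in the 1 promoter window of BIRC3, in 1 of the 3 of CYLD and in none of the 3 of TRAF1 or the 3 of XIAP. The G quadruplex motif was in all 3 windows of CYLD, in 2 of XIAP and in none of BIRC3 or TRAF1. Of all windows, 9.96% held the NF-kB consensus and 23.5% the G quadruplex motif. Each of these searched genes was higher with PhenDC3, and no unchanged or lower gene of the lists was searched. The matches therefore cannot show whether a motif goes with a rise.

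Of the other caspases, CASP4, an inflammatory caspase, fell to 0.632 of its DMSO level (limma, log2 -0.67, adjusted p = 1.33e-06). CASP6 was at 0.785 (limma, log2 -0.36, adjusted p = 0.0307). CASP10, the close relative of CASP8 that lies between CFLAR and CASP8 on chromosome 2, was at 29.8 ± 4.91 and 26.3 ± 1.22 normalized counts and did not pass (limma, log2 -0.16, adjusted p = 0.531). The 3 neighbouring genes therefore gave a rise, no call and a fall. CASP2 was 1.15-fold higher (limma, adjusted p = 0.0431), and lost its call in 5 of 6 fits without 1 library, all but that without PhenDC3 replicate 3, with adjusted p-values up to 0.158. CASP6 lost its call without DMSO replicate 3 (limma, adjusted p = 0.0945) or PhenDC3 replicate 1 (log2 -0.22 in place of -0.36, adjusted p = 0.169).

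On the mitochondrial route, 3 of the 4 genes tested beside CASP9 were lower and none higher, where 30.4% of all genes were lower. CYCS, cytochrome c, fell to 0.592 of its DMSO level, from 2167 ± 122 to 1283 ± 85.9 normalized counts (limma, adjusted p = 9.63e-09). APAF1, the scaffold that activates caspase 9, fell to 0.772 (limma, adjusted p = 0.0048, and 0.0543 without DMSO replicate 1). HTRA2 was at 0.827 (limma, adjusted p = 0.0213, and 0.082 without DMSO replicate 3 or 0.0988 without PhenDC3 replicate 3). HTRA2 also did not pass in the authors' deposited table (adjusted p = 0.081). Of the inhibitor of apoptosis proteins, XIAP, which blocks caspases directly, rose 1.93-fold, with 505, 456 and 417 normalized counts in DMSO and 819, 960 and 879 in PhenDC3 (limma, log2 0.95, SE 0.08, adjusted p = 7.5e-09). The XIAP groups were far apart. BIRC5, survivin, which also serves in mitosis, fell to 0.449, and BIRC6 was 1.22-fold higher (limma, adjusted p = 0.0148). BIRC6 had a log2 change of 0.30, or 0.13 without DMSO replicate 3, and lost its call there (limma, adjusted p = 0.0582) and without PhenDC3 replicates 2 (adjusted p = 0.0568) or 3 (adjusted p = 0.0683).

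The list for substrates that caspases cut during cell death held 5 genes, with DFFB there as the partner of the substrate DFFA. Of these 5, 3 were lower and none higher, a share called of 60.0% that is close to the 59.6% of all genes. DFFA itself did not pass (limma, log2 0.07, adjusted p = 0.457). PARP1 fell to 0.682 of its DMSO level. DFFB, the nuclease that cuts DNA in apoptosis, was at 0.741 (limma, adjusted p = 0.0232, lost in 3 of the 6 fits without 1 library, those without DMSO replicate 1 or 3 or PhenDC3 replicate 3, at up to 0.118). BID, through which caspase 8 engages the mitochondria, was at 0.867 (limma, adjusted p = 0.041, lost in 5 of these 6 fits, all but that without DMSO replicate 1, at up to 0.142). MLKL, the executor of necroptosis, fell to 0.456, with 324, 364 and 387 normalized counts in DMSO and 179.9, 138 and 172 in PhenDC3 (limma, log2 -1.13, SE 0.11, adjusted p = 2.5e-08). Each treated library of MLKL was below the lowest control.

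**Figure D4:**
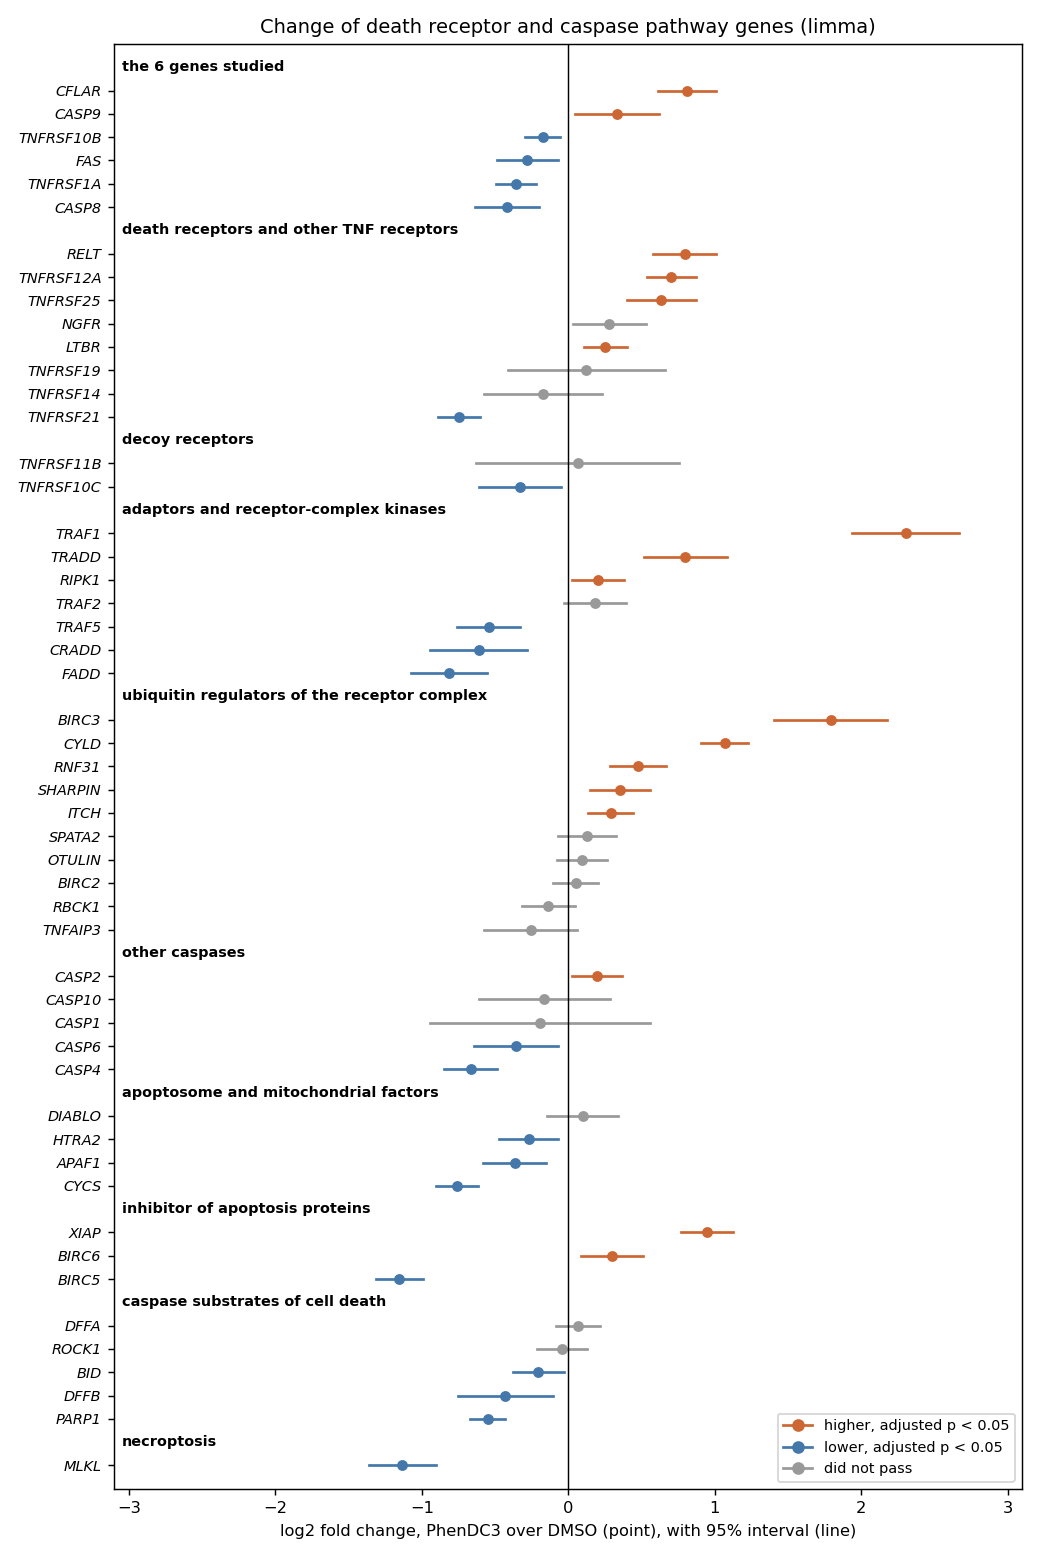
Log2 fold change of PhenDC3 over DMSO from limma (points, horizontal axis) with its 95% interval (lines) for the 6 genes and other tested genes of the pathway, grouped by role, coloured by whether the adjusted p was under 0.05. CFLAR, XIAP, BIRC3, CYLD and TRAF1 lie on the side of higher levels, and FADD, CASP8, CYCS and MLKL on the other.

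Among 9724 genes with a symbol and a mean of 100 or more normalized counts, those whose log2 levels correlated best with CFLAR over the 6 libraries were MXI1, ZNF260 and KIAA1191, each with Pearson's r of 0.999. For CASP8, which had the lowest log2 change of the 6, they were ATP2C1 (r = 0.997), PRPF38A and CEP128 (both r = 0.995). These are descriptions only. With 6 libraries in 2 groups any gene that changed cleanly correlates well, and 1471 genes had an r over 0.95 with CFLAR and 322 with CASP8.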

How the data were processed

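Poly(A) RNA libraries from 3 DMSO and 3 PhenDC3 samples were compared, grouped as in the labels. Without giving roles, the submitters' processing notes list hg19, STAR 2.7, featureCounts, DESeq2 1.18.1, TopHat2 2.0.11, Cuffdiff, Cufflinks 2.2.1 and CASAVA. The deposited signal columns hold reads per gene after division, by the authors, by a size factor for each library. All values (100%) were whole multiples of 1 read within a relative tolerance of 1e-06, and reads were recovered from them. The authors' deposited table also gives a log2 fold change and an adjusted p-value, which is missing for 1332 genes.

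The main test was limma 3.58.1 (R 4.3.3) on log2(value + 1), with a variance trend, for the 16482 genes with a mean of 5 or more, adjusted by Benjamini-Hochberg over all of them at a threshold of 0.05. The pseudocount understates the change of low genes. As alternatives, the recovered reads were tested with DESeq2 1.42.0, which called 8418 of 21593 genes, and with edgeR 4.0.16, which called 9431 of 14950. The genes, gene lists and settings were chosen with earlier results of these data known. Named genes were the 6, the called genes of lowest adjusted p in each list (up to 4), 12 genes set by name, and the 3 most similar profiles of 2 of the 6. Some genes picked by this rule are not reported here. In a simulation with 16276 genes, 67 were changed 1.5-fold, 67 were changed 2-fold and 66 were changed 4-fold. There limma called 70.1% of the 1.5-fold changes, 79.1% of the 2-fold changes and 90.9% of the 4-fold changes, and made 4 false calls. In the data 59.6% of genes were called, a far larger share. The adjustment depends on that share, so these rates do not carry over to the comparison made here. Residuals of same-numbered libraries correlated at 0.008, 0.071 and 0.027. GENCODE release 29 gave exon lengths and overlaps, and Python 3.11.15 was used for tables.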

Additional observations from a re-analysis of the deposited data

How the results depend on the processing

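Of the 6 genes, CFLAR, TNFRSF1A and CASP8 kept direction and call in all 18 alternatives, and none of the 6 changed direction. The alternatives are not independent of each other or of the main fit. Changing the filter or the variance trend, or adding a replicate block, leaves the log2 change as it was, so direction could not change there. DESeq2 and the authors' deposited table gave nearly the same values and count as 1 analysis. The number called was 6, but 3 without DMSO replicate 2 or PhenDC3 replicate 3, 4 with DESeq2, the authors' deposited table or no variance trend, and 3 to 6 over all fits without 1 library. Calls were lost for FAS with DESeq2 and in the authors' deposited table (log2 -0.28 in both, adjusted p = 0.0721 and 0.072) and with no variance trend (log2 -0.28, adjusted p = 0.0592), for TNFRSF10B with no variance trend (log2 -0.18, adjusted p = 0.0615), and for CASP9 with DESeq2 and in the authors' deposited table (log2 0.34 in both, adjusted p = 0.175), with no filter on low values (log2 0.33, adjusted p = 0.0551), with TMM scaling (log2 0.29, adjusted p = 0.0747) and with reads thinned to the smallest library (log2 0.21, adjusted p = 0.229). Without filtering more genes enter the adjustment, and thinning removes reads, but the cause was not tested for any of these losses. Leaving out 1 library gave log2 changes of -0.35 to -0.20 for FAS, -0.20 to -0.16 for TNFRSF10B, -0.39 to -0.33 for TNFRSF1A, 0.76 to 0.86 for CFLAR, -0.49 to -0.34 for CASP8 and 0.25 to 0.39 for CASP9. The log2 difference of the CFLAR to CASP8 ratio was 1.20 to 1.25 in those fits and that of CASP9 to CASP8 0.64 to 0.88. The count over all genes ran from 8418 to 10454, and the pathway lists had 12 to 16 genes higher and 12 to 17 lower. Of the values of the 31 tested pathway genes picked by the naming rule, 156 of 186 kept call and sign without 1 library and 337 of 372 under the other settings, and none changed direction with a call. The replicate numbers gave no sign of pairing the libraries. A replicate block raised the calls to 10155 genes and kept all 6 of the genes studied, FAS at an adjusted p of 0.0103 and CASP9 at 0.0349. The ratios to TNFRSF10B that had been planned for TNFRSF10A and TNFRSF10D were not run. The authors' deposited p-value was added as an alternative after seeing the data. TMM scaling moved the median log2 change of all genes to -0.06.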
